A study of Mus musculus with 24 samples.

Results

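The core pluripotency genes Pou5f1, Sox2, Sall4, Utf1, Lin28a, Dppa2 and Dppa4 were examined in mouse embryonic stem cells with and without Smad2. They were chosen by name, as 7 of the 21883 protein-coding genes in the gene table, and each was represented by the accessible intervals that overlapped its GRCm38 gene body or the 20000 bases on either side. That rule was met by 101 of 299780 intervals of the Ctrl table and 90 of 272268 of the Paused table, all of 1 width. Sox2 had 18 (Ctrl) and 14 (Paused) intervals, Sall4 18 and 19, Lin28a 14 and 16, Pou5f1 10 and 9, and Utf1 9 and 10. Dppa2 (21 and 15) and Dppa4 (20 and 15) are neighbours, and 9 Ctrl and 8 Paused intervals counted for both.

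Accessibility was measured by ATAC-seq, which uses the Tn5 transposase to tag open chromatin. All groups were E14 cells, an established mouse embryonic stem cell line, grown without feeder cells on gelatin in serum and LIF, the cytokine that keeps such cells undifferentiated. Besides wild type (WT), the 3 lines included the Smad2 knockouts Smad2_KO1 and Smad2_KO2, each taken untreated (Ctrl) or after 12 hours in 200 nM INK128, an inhibitor of the mTOR kinase (Paused). Each of the 6 groups had 4 libraries, and the labels do not say whether these came from separate cultures, so p-values measure the spread between these libraries, which may be technical. The labels give neither the part of Smad2 that was altered nor whether each knockout line is 1 clone.

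Pou5f1 (the protein OCT4) and Sox2 are the transcription factors at the centre of the pluripotency network, and Sall4 is a zinc finger factor that acts with them. Utf1 is a chromatin-bound protein of undifferentiated cells, Lin28a an RNA-binding protein that blocks maturation of let-7 microRNAs, and Dppa2 and Dppa4 are partner proteins that keep developmental promoters poised. Smad2 carries the Nodal and activin signal from the receptors to DNA, where it works with Smad4 and partners such as FOXH1. mTOR inhibition puts embryonic stem cells into a slowed state that resembles embryonic diapause.

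The values are reads per interval after the authors' scaling, called normalized reads below. From the spacing of the values, the 24 libraries held 11456986 to 20007829 reads in intervals. In Paused, the Smad2_KO1 libraries (at least 14946853) were all deeper than the WT libraries (at most 14763067). In Paused, each Smad2_KO1 library was closer to the Smad2_KO2 library of the same number (chi-square of the reads per degree of freedom 1.001 to 1.07) than any pair of libraries within either knockout line was to each other (1.11 to 1.48). The pair numbered 2 differed by no more than counting noise (1.001, against a noise limit of 1.006), although the labels put them in different lines, and results that change without either are given both ways. In Ctrl the same-numbered pairs lay at 1.02 to 1.27 and the pairs within a knockout line at 1.11 to 1.43. The labels do not say what a number shares, so the knockout lines may not be independent samples. With same-numbered knockout libraries averaged to 1 sample, 13 member intervals were called in Ctrl (13% of all intervals) and 16 in Paused (19.8% of all). No interval in the Smad2 gene was called in both knockout lines in Ctrl (of 7) and 2 were in Paused (of 11), beside 7.15% and 13.9% of all intervals. Accessibility does not check a knockout. Start intervals of the embryonic stem cell markers Nanog, Esrrb, Zfp42, Tfcp2l1, Klf4 and Fgf4 were open in Ctrl, at 139 to 515 normalized reads on average, and none was called by limma, edgeR or DESeq2 (1 at an unadjusted p under 0.05 in both lines). In Paused 5 of these 6 genes had a start interval (Klf4 had none), at 35.9 to 563 normalized reads. None was called there by limma, edgeR or DESeq2 (1 at an unadjusted p under 0.05 in both lines). In Ctrl 4 of 5 primitive endoderm genes had a start interval as well (15.0 to 218), and 2 of 5 trophoblast genes did (41.2 and 60.4). Whether accessibility at starts separates these cell types was not tested. Of the fibroblast markers Col1a1, Col1a2, Twist1, Prrx1 and Thy1, 3 had a start interval in Ctrl and 4 in Paused, and Thy1 was lower in both knockout lines in both tables and Col1a1 in Paused. Among the start intervals of all protein-coding genes, 2.52% were called lower in Ctrl and 12.2% in Paused. The summed start intervals of the fibroblast list held 391 to 449 normalized reads in the WT libraries, 324 to 379 in Smad2_KO1 and 333 to 369 in Smad2_KO2 in Ctrl. In Paused the sums were 596 to 755, 506 to 553 and 486 to 601. The trophoblast gene Elf5 was higher in Paused by limma, the only call among 3 such genes with a start interval, beside 1.94% of all start intervals called higher there. Among these 3 genes edgeR on reads also called 1 higher, and DESeq2 on reads called 0. The part of these marker genes and of depth in the results below was not tested.

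In Ctrl, Sox2 and Utf1 had an interval that reached the annotated start, while a Pou5f1 interval ended short of its second start and is described below. For Sox2 and Utf1 the RefSeq bases (GRCm38.p6, plus strand) from the edge of the Ctrl interval to the base before the start are shown because neither interval was called. Capitals mark the GC box GGGCGG, on either strand, which SP and KLF factors can bind.
Sox2, chr3:34649829-34649994: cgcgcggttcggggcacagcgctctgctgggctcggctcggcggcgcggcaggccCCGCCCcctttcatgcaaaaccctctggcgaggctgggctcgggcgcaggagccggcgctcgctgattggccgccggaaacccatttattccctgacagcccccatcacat
Utf1, chr7:139943667-139943855: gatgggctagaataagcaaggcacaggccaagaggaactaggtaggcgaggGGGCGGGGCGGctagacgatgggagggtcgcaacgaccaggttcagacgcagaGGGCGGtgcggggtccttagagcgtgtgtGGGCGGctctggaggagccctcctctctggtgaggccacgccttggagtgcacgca
The Sox2 stretch had a GC content of 70.5% and 1 GC box, and the Utf1 stretch 65.1% and 4, of which 2 overlap by 1 base. In the table's windows of 300 bases around starts, 35.7% of 32851 hold a GC box. Of the 7 members, 4 had such windows (5 windows, with 2 for Pou5f1). None of them held the POU octamer ATTTGCAT, the SMAD palindrome GTCTAGAC or the ESRRB motif TCAAGGTCA on either strand, which 1.74%, 0.213% and 0.423% of all windows hold. The SOX motif ACAATGG was found only at the second Pou5f1 start (3.66% of all windows) and the FOXH1 motif AATNNACA only at Sox2 (12.2%). These matches describe letters, not binding.

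To ask how loss of Smad2 relates to accessibility at the core genes, each knockout line was compared with WT within a treatment. Across the 98 member intervals tested in Ctrl, 7 were called in both knockout lines (7.14%; limma on log2(value + 1), adjusted p under 0.05 in each line and the same direction), against 7.15% of all intervals tested. Of these, 3 were higher (background 3.95%) and 4 lower (background 3.2%). In Paused 10 of 89 were called (11.2%, background 13.9%), 5 higher (background 9.01%) and 5 lower (background 4.92%). The members' share of calls was thus near the background in both treatments. The higher Paused calls 9991 bases upstream of Lin28a and 9172 bases outside Dppa4 passed the filter (at least 10 in at least 4 libraries) only through knockout libraries. The higher Ctrl call 4822 bases upstream of Lin28a also needed knockout libraries to pass it. Under other scalings and count tests both the members' counts and the background moved. DESeq2 size factors, which moved the median change of all Paused intervals from 0.12 to 0.01, gave 9 calls in Ctrl (background 7.61%), 3 higher (2.79%) and 6 lower (4.82%), and 16 in Paused (background 14.8%), 5 higher (5.92%) and 11 lower (8.87%). Library totals gave 9 in Ctrl (background 7.61%), 5 higher (4.4%) and 4 lower (3.2%), and 10 in Paused (background 14.7%), 6 higher (10.5%) and 4 lower (4.21%). edgeR's quasi-likelihood test on the recovered reads gave 9 in Ctrl (background 7.79%), 3 higher (2.6%) and 6 lower (5.19%), and 16 in Paused (background 14.5%), 4 higher (5.5%) and 12 lower (9.02%). DESeq2 on those reads gave 5 in Ctrl (background 4.06%), 0 higher (0.921%) and 5 lower (3.14%), and 12 in Paused (background 8.89%), 4 higher (2.39%) and 8 lower (6.51%).

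Each line alone gave more calls than both together. In Ctrl 12 member intervals were called in Smad2_KO1 (background 11.6%), 6 higher (7.1%) and 6 lower (4.52%), and 11 in Smad2_KO2 (background 10.7%), 6 higher (5.83%) and 5 lower (4.85%). In Paused 21 were called in Smad2_KO1 (background 19.4%), 10 higher (12.9%) and 11 lower (6.56%), and 11 in Smad2_KO2 (background 19.3%), 6 higher (12.4%) and 5 lower (6.86%). In Paused that count for Smad2_KO1 was 11 without WT replicate 1 (15.9% of all intervals), 9 without Smad2_KO1 replicate 2 (12.1% of all) and 12 without Smad2_KO1 replicate 3 (13.8% of all), and that for Smad2_KO2 was 19 without WT replicate 3 (20.3% of all). In Ctrl the Smad2_KO1 count was 7 without Smad2_KO1 replicate 3 (7.72% of all). No member interval was called between the 2 knockout lines in either table (limma, background 0.0%), and edgeR and DESeq2 on reads also called 0. At an unadjusted p under 0.05 by limma there were 3 of 98 in Ctrl and 2 of 89 in Paused, near the 3.28% and 1.97% of all intervals. All 8 knockout libraries lay on the same side of all 4 WT libraries at 9 member intervals in Ctrl (background 7.48%), 4 higher (4.16%) and 5 lower (3.32%), and at 9 in Paused (background 11.5%), 5 higher (7.25%) and 4 lower (4.2%). The authors' deposited table, which pools the knockout libraries, held 15 member intervals at a false discovery rate under 0.05 in Ctrl (background 12.2%), 7 higher (6.27%) and 8 lower (5.93%). In Paused the authors' deposited table held 20 (background 21.6%), 8 higher (12.6%) and 12 lower (8.96%). Without Smad2_KO1 replicate 2 the Paused count called in both lines was 7 (9.74% of all intervals), and without Smad2_KO2 replicate 2 it was 9 (9.68% of all).

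**Figure D1:**
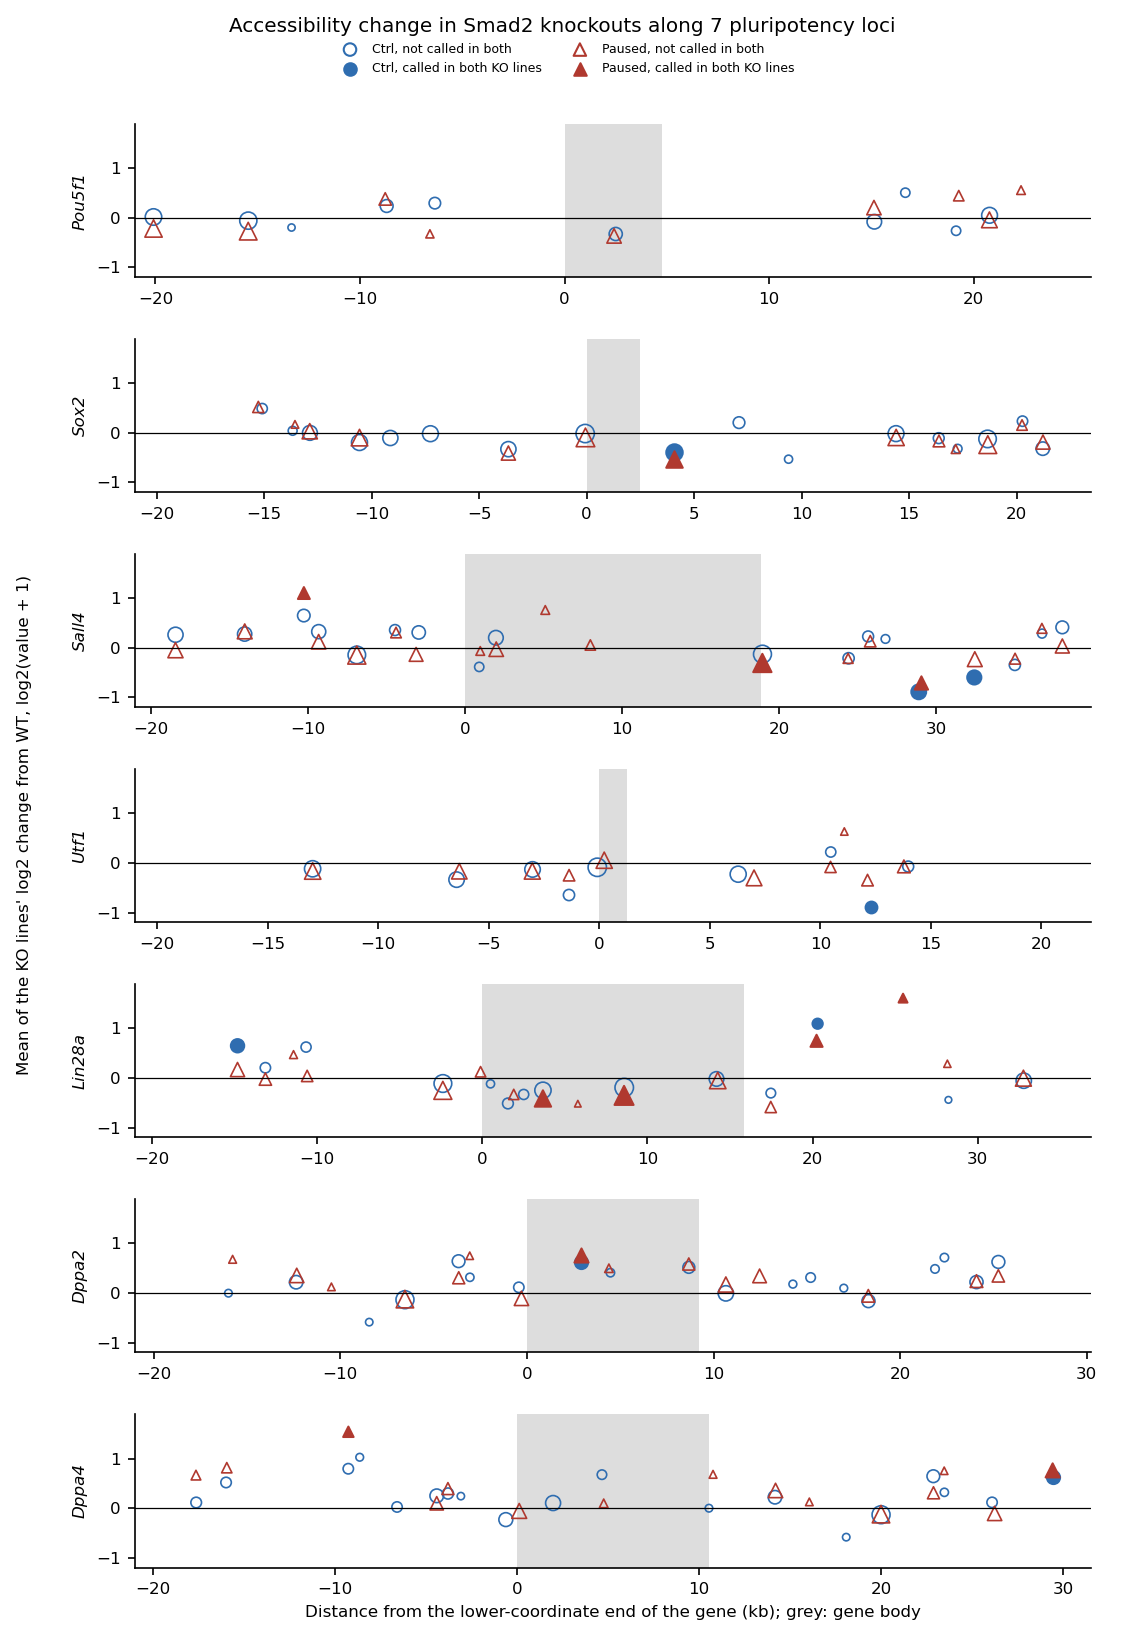
Change in accessibility along the 7 loci: the horizontal axis is the distance from the lower-coordinate end of each gene in kb (grey, gene body), and the vertical axis is the mean of the 2 knockout lines' log2 changes from WT. Circles are Ctrl and triangles Paused, larger marks have higher mean values, and filled marks were called in both knockout lines; Pou5f1 has no filled mark, and the filled marks of Sox2 and the Dppa2 gene body coincide in both treatments.

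The median change over the member intervals was 0.01 in Ctrl, where all tested intervals had 0.08, and -0.00 in Paused, where all had 0.12. Single members lay from -0.89 to 1.10 (Ctrl) and from -0.71 to 1.61 (Paused). The loci differed in direction. Of the 30 intervals near Dppa2 or Dppa4 in Ctrl, 24 had a positive change and in Paused 18 of 22 did (80% and 81.8%, beside 58.9% and 60.9% of all intervals), with medians of 0.24 and 0.35. At Utf1 8 of 9 Ctrl and 8 of 10 Paused changes were negative (medians -0.13 and -0.16), and at Sox2 12 of 17 and 9 of 13 (medians -0.10 and -0.09). The Sall4 median was 0.22 in Ctrl (11 of 18 positive) and -0.03 in Paused (9 of 19), the Lin28a median -0.11 (4 of 14) and -0.01 (7 of 16), and the Pou5f1 median -0.02 (5 of 10) and -0.04 (4 of 9).

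Level and change moved together over the whole tables. Among all intervals the median change fell from 0.23 in the lowest decile by level to -0.07 in the highest in Ctrl, and from 0.39 to -0.14 in Paused. Member intervals had a median of 28.3 normalized reads in Ctrl (all intervals, 20.9) and 36.5 in Paused (24.4). In Ctrl the medians of Dppa2 (14.9), Dppa4 (19.2) and Lin28a (19.7) lay below 20.9 and those of the other members above it. In Paused every member's median lay above 24.4. Among the tested member intervals, 18 in Ctrl and 17 in Paused lay in the highest decile (18.4% and 19.1%). In that decile 1 of the 18 Ctrl and 4 of the 17 Paused members were called lower, beside 6.34% and 17.9% of all intervals there. Whether the level trend sets the direction of the member intervals was not tested.

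**Figure D2:**
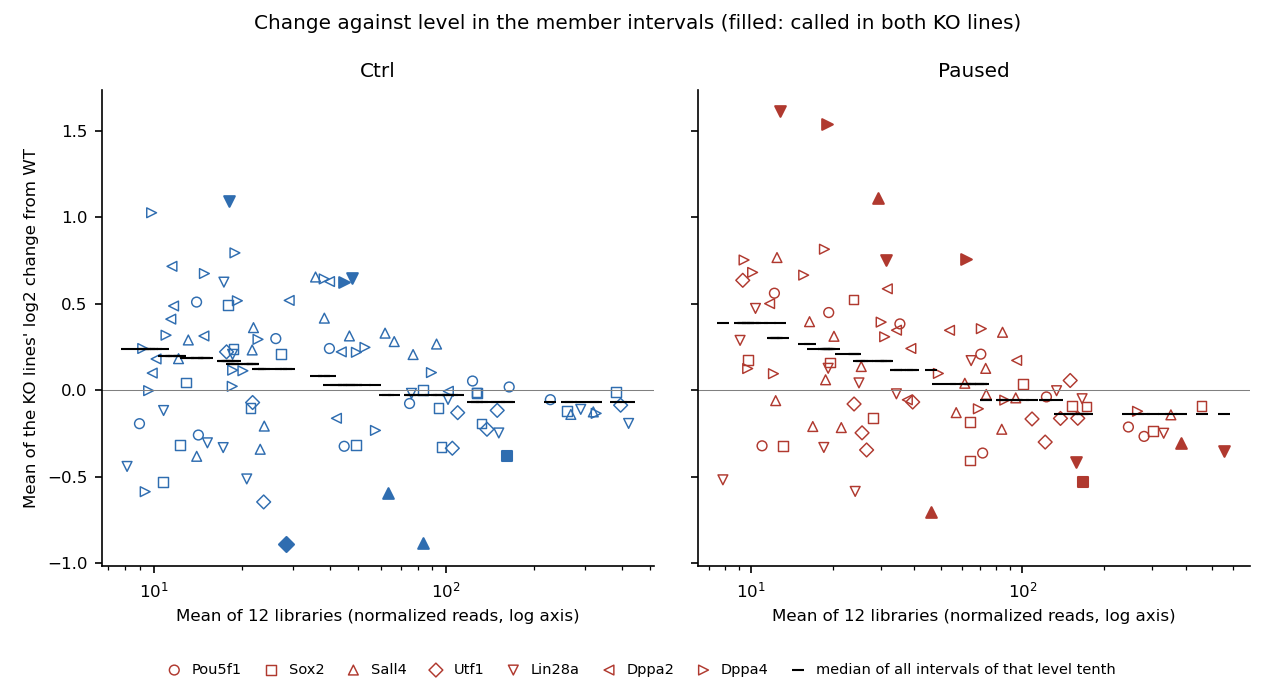
Change against level in the member intervals of Ctrl (left) and Paused (right): the horizontal axis is the mean of 12 libraries in normalized reads on a log axis, the vertical axis the mean log2 change of the 2 knockout lines from WT, and the symbol gives the gene (Dppa4 symbols include intervals shared with Dppa2). Black dashes are the median of all intervals in the same decile by level, which lies above 0 at low levels and reaches -0.07 in Ctrl and -0.14 in Paused at high levels.

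Sox2 had an interval 4058 bases downstream of its start (chr3:34653953-34654153 in Ctrl, outside the gene by 1492 bases) that was lower in both knockout lines with and without inhibitor. In Ctrl the WT libraries held 198.67, 188.99, 187.28 and 190.88 normalized reads, the Smad2_KO1 libraries 149.61, 147.01, 144.31 and 162.87, and the Smad2_KO2 libraries 126.26, 141.07, 166.79 and 137.87. Every knockout library lay below every WT library. The log2 changes were -0.34 in Smad2_KO1 and -0.43 in Smad2_KO2 (SE 0.11), with limma adjusted p = 0.0277 and 0.00598. This call was lost with loess offsets along the level and without WT replicate 1 (adjusted p = 0.0619 in limma), WT replicate 4 (0.0557) or Smad2_KO1 replicates 1, 2 or 3 (0.0683, 0.0561 and 0.0765).

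In Paused the matched Sox2 interval (chr3:34653955-34654155) held 221.29, 223.27, 183.41 and 213.22 normalized reads in WT. The Smad2_KO1 libraries gave 159.63, 122.34, 141.67 and 162.89 and the Smad2_KO2 libraries 147.82, 116.99, 143.69 and 169.56, again with no overlap. The changes of -0.52 and -0.55 (SE 0.11; adjusted p = 0.00114 and 0.000751 by limma) were called under all alternatives and leave-outs run. The Sox2 start itself, the strongest Sox2 interval, showed no such difference: in Ctrl it averaged 386 ± 58.1 (WT), 374 ± 43.7 (Smad2_KO1) and 388 ± 25.4 (Smad2_KO2) normalized reads (SD, n = 4). In Paused it held 480 ± 89.0, 445 ± 48.1 and 449 ± 29.1 (SD, n = 4), and the groups overlapped in both tables. An interval 3636 bases upstream of the Sox2 start passed the threshold, lower, in the authors' deposited table in Ctrl (false discovery rate 0.0432), as its partner did in Paused (0.0317). It was not called in both lines here: the changes were -0.33 and -0.33 in Ctrl (limma adjusted p = 0.0872 and 0.0977) and -0.46 and -0.35 in Paused, where Smad2_KO1 passed (limma adjusted p = 0.0366 and 0.121). In the authors' deposited table a Paused interval 18656 bases downstream passed as well (false discovery rate 0.0174), where limma gave -0.25 and -0.23 (adjusted p = 0.0541 and 0.0757).

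Pou5f1 had no interval called in both lines in either table by limma, among 10 and 9 tested. At an unadjusted p under 0.05 in both lines there were 0 in Ctrl and 2, both lower, in Paused, edgeR on reads called 0 and 3 lower, and DESeq2 on reads 0 and 2 lower. Its strongest interval, 15461 bases upstream of the first annotated start (chr17:35490471-35490671 in Ctrl), averaged 234 ± 32.7 (WT), 236 ± 16.2 (Smad2_KO1) and 213 ± 13.6 (Smad2_KO2) normalized reads (SD, n = 4), with overlapping groups. In Paused the matched interval held 359.46, 339.19, 284.83 and 286.05 in WT, 268.91, 242.86, 246.19 and 280.08 in Smad2_KO1, and 236.71, 265.47, 259.31 and 303.03 in Smad2_KO2. All knockout libraries but 1, Smad2_KO2 replicate 4, lay below every WT library there. The changes were -0.28 (limma adjusted p = 0.0292) and -0.25 (0.0544), so 1 line passed the threshold, and the authors' deposited table gave a false discovery rate of 0.00576. That interval was called in both lines with DESeq2 size factors, with either count test and when WT replicate 3, WT replicate 4 or Smad2_KO2 replicate 4 was left out.

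Inside the Pou5f1 gene, 2499 bases from the first start and beside the second RefSeq start, the Ctrl interval averaged 52.1 ± 6.50 (WT), 42.7 ± 6.55 (Smad2_KO1) and 39.9 ± 0.908 (Smad2_KO2) normalized reads (SD, n = 4). The changes of -0.28 and -0.37 were not called (limma adjusted p = 0.265 and 0.143). In Paused the values were 84.7 ± 18.4, 62.3 ± 3.35 and 67.1 ± 10.5 (SD, n = 4) and only Smad2_KO1 passed (limma adjusted p = 0.0454 and 0.127). This interval was called in both lines with DESeq2 size factors, with edgeR on reads and without WT replicate 3. Accessibility at the first Pou5f1 start was not analysed here.

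Sall4 carried 2 lower intervals in Ctrl. The first lay 9919 bases beyond the gene on its higher-coordinate side (chr2:168777120-168777320). WT held 121.77, 98.53, 125.95 and 134.8 normalized reads, Smad2_KO1 52.15, 54.49, 62.78 and 67, and Smad2_KO2 72.15, 55.52, 76.49 and 78.5. The knockout libraries were all below the WT libraries. The changes were -1.01 and -0.76 (SE 0.14; adjusted p = 1.95e-06 and 0.000186 by limma), and every alternative and leave-out run kept the call. A second Ctrl interval, 13455 bases beyond the same end (chr2:168780656-168780856), fell from 82.2 ± 7.75 to 54.1 ± 6.51 and 54.3 ± 7.22 (SD, n = 4), by 0.60 and 0.59 on the log2 scale (limma adjusted p = 0.00474 and 0.00515), also with no overlap and no loss.

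In Paused the nearest call to the first of these was chr2:168777291-168777491, which shares only a small part with the Ctrl interval and was not matched to it. It changed by -0.76 and -0.65 (limma adjusted p = 0.0164 and 0.0391), but the groups overlapped and Smad2_KO2 replicate 2 stood at 18 while the other libraries of that line lay between 47.15 and 49.23. The call was lost without that library (limma adjusted p = 0.326), without WT replicate 1 (0.157) or 4 (0.0631) and without Smad2_KO1 replicate 2 (0.126), and with library totals or DESeq2 on reads. The authors' deposited table gave it a false discovery rate of 0.0736.

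At the higher-coordinate end of Sall4 lay its strongest interval (chr2:168767166-168767366 in Paused). The strand of Sall4 was not annotated here, so the text does not say whether that end is its start. It held 446.9, 435.8, 455.3 and 419.81 normalized reads in WT, 362.03, 359.76, 332.57 and 389.34 in Smad2_KO1, and 342.59, 344.96, 346.88 and 370.85 in Smad2_KO2. The groups did not overlap, and the changes were -0.28 and -0.32 (SE 0.08; adjusted p = 0.00946 and 0.00368 by limma). The call was lost with loess offsets along the level and without Smad2_KO1 replicate 3 (limma adjusted p = 0.0508). In Ctrl the matched interval held 338 ± 16.1, 313 ± 22.2 and 307 ± 21.2 (SD, n = 4) and was not called (limma adjusted p = 0.444 and 0.325).

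On the other side of Sall4, inside the neighbouring gene Atp9a, an interval was higher in Paused (chr2:168737982-168738182). It went from 16.6 ± 6.53 normalized reads in WT to 37.7 ± 6.00 and 33.8 ± 6.53 (SD, n = 4), with changes of 1.19 and 1.03 (limma adjusted p = 0.000198 and 0.00105), no overlap and no loss of the call in any run. Its Ctrl partner changed by 0.74 and 0.56, of which only Smad2_KO1 passed (limma adjusted p = 0.00799 and 0.0503). Sall4 thus held calls of both signs within its window.

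Lin28a had the strongest member interval of both tables, inside the gene and 6892 bases downstream of the start (chr4:134011824-134012024 in Paused). In Paused, WT held 687.62, 636.52, 591.24 and 683.35 normalized reads, Smad2_KO1 553.01, 494.79, 488.06 and 540.3, and Smad2_KO2 460.45, 470.95, 504.04 and 563.39. Every knockout library was below every WT library. The changes were -0.32 and -0.38 (SE 0.08; adjusted p = 0.00291 and 0.000619 by limma), and the call was lost only with loess offsets along the level. In Ctrl the matched interval held 461 ± 33.0, 407 ± 13.4 and 398 ± 14.1 (SD, n = 4), also without overlap, but the changes of -0.18 and -0.21 were not called (limma adjusted p = 0.148 and 0.0858), while the authors' deposited table gave a false discovery rate of 0.0215.

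A second interval in the Lin28a gene, 11801 bases from the start, fell in Paused from 189 ± 7.85 to 149 ± 19.6 and 136 ± 9.36 normalized reads (SD, n = 4). The changes were -0.35 and -0.48 (limma adjusted p = 0.0181 and 0.00142), and the call was lost with loess offsets along the level and without Smad2_KO1 replicate 2 (limma adjusted p = 0.0974). In Ctrl its partner was not called (-0.22 and -0.28, limma adjusted p = 0.225 and 0.110).

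Upstream of the Lin28a start the calls ran the other way. An interval 4822 bases upstream (chr4:134023538-134023738 in Ctrl) rose from 10.7 ± 5.21 to 22.1 ± 6.77 and 21.7 ± 3.89 normalized reads (SD, n = 4), by 1.09 and 1.10 (SE 0.29; adjusted p = 0.0100 and 0.0101 by limma). Its Paused partner rose from 21.9 ± 8.52 to 34.8 ± 8.20 and 37.3 ± 4.35 (SD, n = 4), by 0.69 and 0.81 (limma adjusted p = 0.0203 and 0.00692). The groups overlapped in both tables. In Ctrl WT replicate 4 held 3.24, so the WT libraries alone did not meet the filter of at least 10 in at least 4 libraries. That interval passed with knockout libraries, so its Ctrl call as higher is not independent of the filter. The Ctrl call was lost with DESeq2 on reads and without WT replicate 4 (limma adjusted p = 0.106) or Smad2_KO1 replicate 2 (0.0574), and the Paused call with loess offsets, with either count test, and without WT replicate 1 (0.0523), WT replicate 4 (0.104) or Smad2_KO1 replicate 2 (0.112).

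A weak Paused interval 9991 bases upstream of the Lin28a start (chr4:134028707-134028907) averaged 5.45 ± 3.54 (WT), 15.9 ± 4.53 (Smad2_KO1) and 17.1 ± 2.78 (Smad2_KO2) normalized reads (SD, n = 4). It rose by 1.55 and 1.68 on the log2(value + 1) scale (SE 0.36, adjusted p = 0.00196 and 0.000946 by limma), with overlap in 1 library. All WT values there lay under 10, so the interval passed the filter only through knockout libraries. Its call as higher is therefore not independent of that filter. In Ctrl an interval inside the neighbouring gene Dhdds, 14695 bases beyond Lin28a (chr4:133988435-133988635), rose from 34.4 ± 4.13 to 54.0 ± 8.23 and 55.1 ± 2.27 (SD, n = 4), by 0.63 and 0.67 (limma adjusted p = 0.00662 and 0.00402), a call lost only with DESeq2 on reads. Its Paused partner was not called (0.24 and 0.10; limma adjusted p = 0.233 and 0.654). Accessibility at the Lin28a start was not analysed here.

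Utf1 had 1 call, in Ctrl, 12285 bases downstream of its start (chr7:139956041-139956241). WT held 40.59, 37.62, 46 and 39.9 normalized reads, Smad2_KO1 17.95, 15.42, 24.36 and 25.41, and Smad2_KO2 28.06, 25.48, 19.12 and 20.13. The groups did not overlap, the changes were -0.97 and -0.81 (SE 0.20; adjusted p = 0.000966 and 0.00626 by limma), and no alternative or leave-out run ended the call. No Paused interval matched it. The Utf1 start, shown above by sequence, averaged 412 ± 5.27 (WT), 394 ± 29.2 (Smad2_KO1) and 383 ± 21.2 (Smad2_KO2) normalized reads in Ctrl (SD, n = 4) and was not called (limma adjusted p = 0.643 and 0.445). In Paused the interval nearest the start lay 225 bases inside the gene, at 147 ± 20.6, 147 ± 15.1 and 157 ± 15.5 (SD, n = 4), with no call.

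Dppa2 held an interval in its gene body that rose in both treatments (chr16:48313083-48313283 in Ctrl). In Ctrl, WT held 33.11, 35.83, 32.86 and 28.04 normalized reads, Smad2_KO1 55.57, 51.4, 46.85 and 51.98, and Smad2_KO2 51.11, 51.88, 37.18 and 60.38. In Paused the matched interval held 45.34, 46.16, 38.84 and 38.41 in WT, 79.82, 71.59, 63.92 and 77.47 in Smad2_KO1, and 80.9, 65.99, 70.72 and 66.73 in Smad2_KO2. Every knockout library was above every WT library in both tables. The changes were 0.65 and 0.60 in Ctrl (SE 0.17; adjusted p = 0.00698 and 0.0145 by limma) and 0.78 and 0.74 in Paused (0.000167 and 0.000337). The Ctrl call was lost with DESeq2 on reads and without WT replicate 4 (limma adjusted p = 0.0513) or Smad2_KO2 replicate 4 (0.0722), and the Paused call stood under all alternatives and leave-outs run.

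Beside Dppa4, 9172 bases outside the gene, lay a Paused interval (chr16:48274363-48274563) with 7.56, 9.66, 8.63 and 5.3 normalized reads in WT. Smad2_KO1 held 30.41, 26.28, 28.51 and 25.82 there and Smad2_KO2 20.97, 29.25, 15.72 and 19.69, all above WT. The changes were 1.73 and 1.34 (SE 0.25, adjusted p = 7.78e-06 and 0.000263 by limma), kept under every alternative and leave-out run. All WT values there lay under 10, so this interval too passed the filter only through knockout libraries. Its adjusted p-values and the keeping of its call are therefore not independent of that filter. The Ctrl partner changed by 0.74 and 0.85, and only Smad2_KO2 passed (limma adjusted p = 0.0714 and 0.0381). The strongest interval between the 2 genes (chr16:48303640-48303840 in Ctrl) was not called: it held 347 ± 25.5, 338 ± 27.0 and 296 ± 30.9 in Ctrl and 281 ± 14.7, 255 ± 22.4 and 262 ± 11.6 in Paused (SD, n = 4). The Dppa4 intervals taken as its start, which differ between the tables, were not called.

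**Figure D3:**
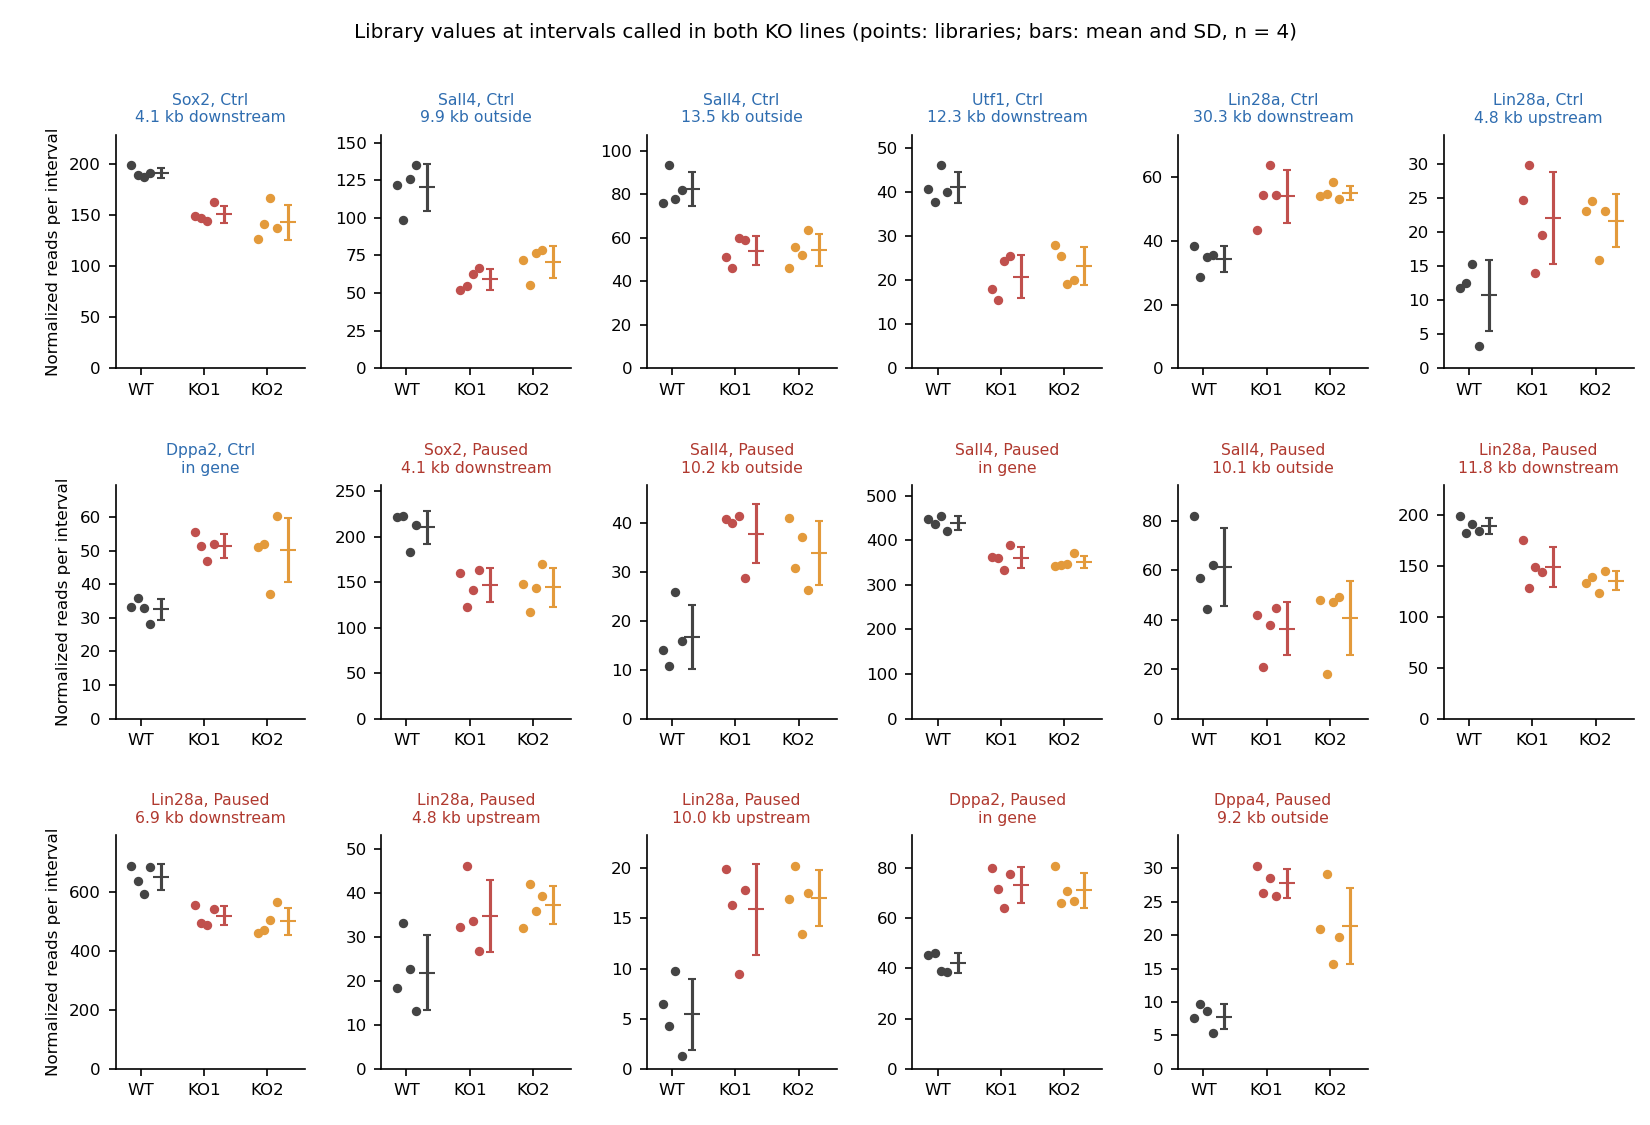
Normalized reads per library (vertical axes, from 0) at the 17 member intervals called in both knockout lines, 7 in Ctrl (blue titles) and 10 in Paused (red titles), with WT in grey, Smad2_KO1 (KO1) in red and Smad2_KO2 (KO2) in orange. Points are libraries and bars the mean and SD (n = 4); at Sox2, 4.1 kb downstream, all knockout libraries lie below all WT libraries in both treatments, and in the Dppa2 gene all lie above.

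The tables were normalized separately, so the treatments were set side by side without a test. By an overlap of at least 50% of each interval, 63 member intervals could be matched one to one. Of these, 5 were called in Ctrl (8.19% of all matched intervals tested in both tables) and 8 in Paused (14.9% of all). In both with the same direction there were 3 (4.91% of all), Sox2 4.1 kb downstream, the Dppa2 gene body and Lin28a 4.8 kb upstream, and 0 had opposite directions. A call in 1 treatment alone does not show that the treatments differ. For instance the Lin28a interval inside the gene, called only in Paused, had mean changes of -0.19 in Ctrl and -0.35 in Paused.

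Summed over the gene and its flanks, Lin28a had the lowest limma adjusted p-values of the member windows, in Paused. In Paused its window held 1890.15, 1717.43, 1633.46 and 1799.74 normalized reads in WT, 1623.87, 1505.21, 1505.63 and 1505.7 in Smad2_KO1, and 1473.24, 1481.85, 1522.2 and 1581.87 in Smad2_KO2. All knockout sums were below all WT sums. Of the mean sums of 1760 (WT), 1535 (Smad2_KO1) and 1515 (Smad2_KO2), the strongest Lin28a interval, called by itself above, held 650, 519 and 500. The sum also takes in the interval 11801 bases from the start, called lower, and the upstream intervals called higher. The window is therefore not a result separate from these intervals. The changes were -0.20 and -0.21 (SE 0.05; limma over the windows of 20232 genes, adjusted p = 0.00133 and 0.000428), and the call held under every scaling and leave-out run. Its size depended on the scaling, with a mean change of -0.21 as deposited, -0.12 with loess offsets and -0.31 with DESeq2 size factors.

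In Paused 3 of 7 member windows were called in both lines (background 27.1%), 1 higher (6.59%) and 2 lower (20.5%). Beside Lin28a these were Sox2, lower by 0.18 and 0.16 on the log2 scale (1711 ± 148, 1512 ± 102 and 1534 ± 94.8 normalized reads, SD, n = 4; limma adjusted p = 0.00991 and 0.0208), and Dppa2, higher by 0.17 and 0.16 (770 ± 42.9, 863 ± 52.4 and 860 ± 37.9, SD, n = 4; limma adjusted p = 0.0205 and 0.0224). The Sox2 window lost its call with library totals (limma adjusted p = 0.0728), with loess offsets along the level (0.276) and without any of 5 libraries: WT replicates 1 (0.102) and 4 (0.0749), Smad2_KO1 replicate 3 (0.0634) and Smad2_KO2 replicates 1 (0.0553) and 2 (0.122). The Dppa2 window lost it with DESeq2 size factors (limma adjusted p = 0.418) and without WT replicate 4 (0.100), Smad2_KO1 replicates 1 (0.108) and 4 (0.0566) and Smad2_KO2 replicates 1 (0.0763) and 2 (0.0808). With DESeq2 size factors the Paused windows of Pou5f1, Sall4 and Utf1 were called lower too, and with library totals or loess offsets that of Dppa4 was called higher (limma adjusted p = 0.0266 and 0.0331). The Pou5f1 window was also called lower without WT replicate 3 (limma adjusted p = 0.0146) or 4 (0.0400). The Paused count was 1 without Smad2_KO2 replicate 1.

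In Ctrl 1 of 7 windows was called (background 8.34%; higher 3.35%, lower 4.99%), that of Utf1, lower, with no overlap between WT and knockout libraries. It fell from 1074 ± 20.8 normalized reads in WT to 951 ± 46.2 in Smad2_KO1 and 949 ± 28.0 in Smad2_KO2 (SD, n = 4), by 0.18 in each line (limma adjusted p = 0.0280 and 0.0260). Leaving out any of 7 libraries ended that call, namely WT replicates 2 and 4 (limma adjusted p = 0.0529 and 0.0868), Smad2_KO1 replicates 1, 2 and 4 (0.0810, 0.0635 and 0.0608) and Smad2_KO2 replicates 1 and 2 (0.107 and 0.0673), as did a window of 5000 bases (0.194), with which the Dppa2 window was called higher in Ctrl (0.27 and 0.34, limma adjusted p at most 0.0315). With DESeq2 size factors the Ctrl windows of Lin28a and Sox2 were called lower too (limma adjusted p = 0.00742 and 0.0486). In Paused the Utf1 window changed by -0.14 in each line (limma adjusted p = 0.0503 and 0.0444), and it was called lower without WT replicate 2 (0.0117) or Smad2_KO2 replicate 2 (0.0498).

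Among the other genes of the pluripotency network, a list of 20 (Nanog, Tdgf1, Fgf4, Nr0b1, Zfp296, Zscan10, L1td1, Trim71, Gdf3, Dppa3, Dppa5a, Zfp42, Rif1, Jarid2, Phc1, Tcl1, Foxd3, Mycn, Lin28b and Sall1), 11 had a start interval in Ctrl and 10 in Paused. In Ctrl 1 was called in both lines, lower, and in Paused 0, beside 3.67% (1.14% higher, 2.52% lower) and 14.2% (1.94% higher, 12.2% lower) of the start intervals of all protein-coding genes. At an unadjusted p under 0.05 in both lines 2 passed in Ctrl (1 higher, 1 lower) and 0 in Paused, and edgeR and DESeq2 on reads each called 1 and 0. The called gene was Lin28b, the paralog of Lin28a, whose start interval held 64.09, 69.87, 63.52 and 65.78 normalized reads in WT, 30.78, 31.87, 31.86 and 41.58 in Smad2_KO1, and 49.1, 40.04, 40.37 and 30.19 in Smad2_KO2. The groups did not overlap, and the changes were -0.94 and -0.73 (limma adjusted p = 0.000115 and 0.00260). Of the intervals taken as the members' starts, 1 of 6 was called in each table: the Dppa2 gene body interval in Ctrl and the interval at the higher-coordinate end of Sall4 in Paused. Sall4, Dppa2 and Dppa4 had no annotated start here, so the strongest interval in or near the gene stood in. For Dppa2 a different interval stood in for Paused, 193 bases outside the gene, and was not called. The Dppa2 gene body interval was called in Paused too.

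The genes whose start interval most resembled the members' mean start profile were Wscd1, Klf9, Tspan18, Canx and Zfp281. Pearson's r, averaged over the 12 Ctrl and the 12 Paused libraries, was 0.815, 0.789, 0.762, 0.754 and 0.754, where the median over 14575 genes was 0.365 and the 99th percentile 0.676. These values are a description: the libraries of a table share their scaling and depth, and 6 members entered the profile.

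**Figure D4:**
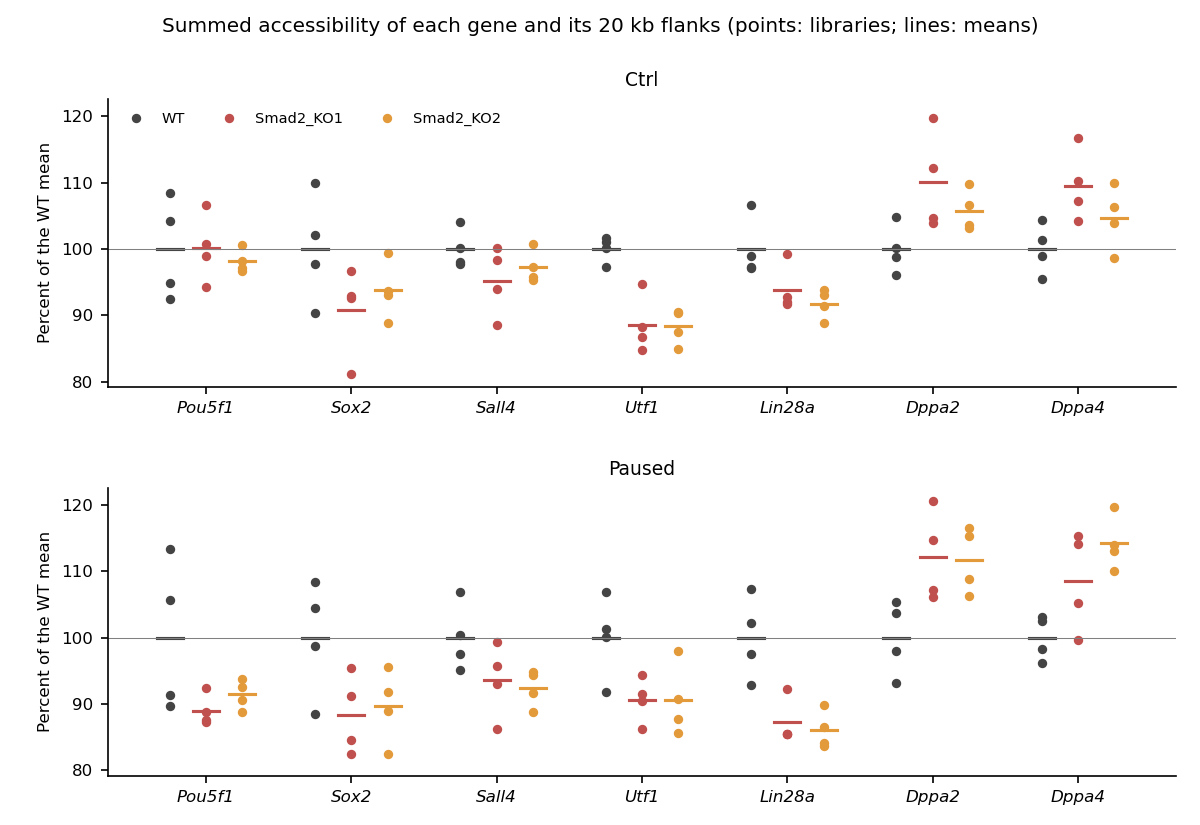
Summed accessibility of each member gene with 20 kb on either side, per library, as a percent of the WT mean of the same treatment (vertical axis, not from 0): grey points are WT, red Smad2_KO1 and orange Smad2_KO2, and short lines are means of 4 libraries. Lin28a in Paused is the window whose knockout points all lie below its WT points and whose call held throughout, and the Dppa2 and Dppa4 windows are the ones with both knockout means above WT in both treatments.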

How the data were processed

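ATAC-seq signal was deposited as 1 table per treatment, each with 12 libraries of 3 lines. Per the submitters' processing notes, the tools were FastQC, Trim Galore, Bowtie2 2.4.1, MACS3 3.0.3 and DiffBind 3.16.0, with build mm10. The aligner's settings and filters are not given in the sources used here. The deposited signal is a read count that the authors scaled by a factor of each library and rounded. At least 99.4% of values in each library were whole multiples of 1 step within 0.0051, and reads were recovered from these steps. In 4 of the 24 libraries the step lay near 1, where a scaled value is hard to tell from a whole number. The authors' deposited log2 fold changes, p-values and false discovery rates compare all knockout libraries with WT, and only the false discovery rates are quoted.

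Samples were grouped by the labels. The main test was limma 3.58.1 (R 4.3.3, empirical Bayes with trend) on log2(value + 1) over all 12 libraries of a table, for intervals with a value of at least 10 in at least 4 libraries, with Benjamini-Hochberg adjustment over all intervals tested (called: adjusted p under 0.05). "Both lines" means called in each line against WT with the same sign. Windows were the summed values of all intervals within 20000 bases of each protein-coding gene, fitted the same way. edgeR 4.0.16 and DESeq2 1.42.0 on the recovered reads were alternatives, with other scalings, pseudocounts, filters, thresholds, windows and left-out libraries. The limma script was tested on simulated data. Gene positions came from a GRCm38.p6 gene table and sequences from RefSeq, without a genome. Python 3.11.15, pandas 2.3.3 and numpy 2.4.6 were used.

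The text names each member's start interval (within 500 bases of the start, else the strongest in or within 1000 bases of the gene), its strongest interval, every interval called in both lines, their partners in the other table, and fixed lists of network and marker genes. For likeness it names the 5 non-member genes with the highest r. The Atp9a and Dhdds hosts of intervals, the Smad2 intervals and the Sox2 intervals called only in the authors' table fall outside that rule and were named after their values were seen. The members and lists were chosen with earlier results of these data known.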

Additional observations from a re-analysis of the deposited data

Results flagged for a closer look

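In 10 of 165 groups of 4 libraries examined, 1 library stood apart from the other 3, with a gap above Dixon's critical share of the group's range. Chance flags about 1 in 20 groups, or 8.25 here.

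In Ctrl, the interval inside Pou5f1 held 52.43 normalized reads in Smad2_KO1 replicate 2, above 38.47 to 40.43 in the other libraries of that line. The strongest Lin28a interval held 387.26 in Smad2_KO1 replicate 1, below 412.31 to 415.85. The Lin28a window sum was 1266.91 in Smad2_KO1 replicate 3, above 1170.15 to 1184.02.

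In Paused, the Sall4 interval inside Atp9a held 28.8 in Smad2_KO1 replicate 4, below 39.87 to 41.46. The interval at the higher-coordinate end of Sall4 held 370.85 in Smad2_KO2 replicate 4, above 342.59 to 346.88. The Sall4 interval beyond the gene held 18 in Smad2_KO2 replicate 2, below 47.15 to 49.23, and its call was lost without that library. The Lin28a interval inside Dhdds held 85.18 in Smad2_KO1 replicate 2, above 64.56 to 67.38, and 53.88 in Smad2_KO2 replicate 3, below 66.73 to 68.24. The strongest Utf1 interval held 176.23 in Smad2_KO2 replicate 2, above 135.65 to 140.83. The Lin28a window sum was 1623.87 in Smad2_KO1 replicate 1, above 1505.21 to 1505.7.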

How the results depend on the processing

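Member intervals called in both lines numbered 7 in Ctrl and 10 in Paused, beside 7.15% and 13.9% of all intervals tested. In Ctrl the count was 4 at an adjusted p under 0.01, 3 with windows of 5000 bases, 20 with the 8 knockout libraries as 1 group and 13 with knockout libraries averaged per replicate number. In Paused it was 16 with DESeq2 size factors (14.8% of all intervals), 16 with edgeR on reads (14.5% of all), 6 with 5000 bases, 24 as 1 group and 16 averaged. For Smad2_KO1 (12 and 21, beside 11.6% and 19.4% of all intervals), the Ctrl count was 6 at 0.01, 5 with 5000 bases and 6 with DESeq2 on reads. The Paused count for that line was 12 with loess offsets, 8 at 0.01 and 12 with 5000 bases. For Smad2_KO2 (11 and 11, beside 10.7% and 19.3% of all intervals), the Ctrl count was 6 at 0.01 and 5 with 5000 bases. The Paused count for that line was 19 with DESeq2 size factors, 7 with 5000 bases and 20 with edgeR. Windows (1 and 3, beside 8.34% and 27.1% of all windows) became 3 and 5 with DESeq2 size factors and 0 and 1 at 0.01. Where no share over all intervals or windows stands beside a count in this section, the count is not a result about the members. That share can move with the setting too. The cause of these moves in the counts was not tested, except that a stricter threshold or narrower window admits fewer calls by construction. Leaving out 1 library gave 5 to 10 (Ctrl) and 7 to 14 (Paused) in both lines, 7 to 13 and 9 to 22 for Smad2_KO1, 8 to 13 and 11 to 19 for Smad2_KO2, 0 to 1 and 1 to 4 for windows, and 0 in each run between the knockout lines. Fits of only the 2 groups compared give no value for both lines. Of 63 matched intervals 47 remained at 90% overlap.

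The mean change turned sign for 5 uncalled named intervals. At the strongest Pou5f1 interval in Ctrl (-0.06) it was 0.0151 with loess offsets, and leaving out 1 library gave -0.112 to 0.0272, above 0 only without WT replicate 1. At the Sox2 start in Ctrl (-0.01) it was 0.0639 with loess offsets and -0.104 to 0.0646 with 1 library left out, above 0 without WT replicates 1 or 2, Smad2_KO1 replicate 2 or Smad2_KO2 replicate 3. At the Sox2 start in Paused (-0.09) it was 0.0891 with loess offsets and -0.191 to 0.00899 with 1 left out, above 0 only without WT replicate 1. At the Utf1 start in Paused (0.06) it was -0.0516 with DESeq2 size factors, -0.0483 with DESeq2 on reads, -0.0338 with edgeR and -0.0147 to 0.125 with 1 left out, below 0 only without WT replicate 2. Between Dppa4 and Dppa2 in Paused (-0.12) it was 0.0157 with loess offsets.

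Between the knockout lines, correlations of same-numbered libraries' deviations ran from 0.01 to 0.11 (Ctrl) and 0.03 to 0.19 (Paused), not all high enough to treat the numbers as pairs. As a hint from the data, not the design, 3 of 8 knockout libraries in Ctrl and 7 of 8 in Paused correlated best with their own number in the other line. A replicate block in the fit gave counts in both knockouts of 8 and 14, Smad2_KO1 counts of 13 and 23, Smad2_KO2 counts of 13 and 14, and window counts of 1 and 4, with the Paused Utf1 window called lower (limma adjusted p = 0.0383).

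Intervals under about 20 normalized reads, such as those 9991 bases upstream of Lin28a and beside Dppa4, rest on few reads per library. In Paused both of these passed the filter only through knockout libraries, where they are high, so their calls as higher are not independent of it.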
